A study of Mus musculus with 79 samples.

Results

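The metabotropic glutamate receptors Grm2, Grm3, Grm4, Grm5, Grm7 and Grm8 were examined, 6 genes of the 55471 in the count table. They were taken by symbol, and each symbol matched 1 identifier. Bulk RNA sequencing covered the medial prefrontal cortex (mPFC) and the ventral hippocampus (vHipp) of 40 male CD-1 mice, an outbred stock, housed in groups of 4 and aged 9 to 10 weeks. In each region, mice were controls (CTRL) or had undergone chronic social defeat stress (CSDS) for 21 days, and each received 1 intraperitoneal injection of saline or of ketamine (10 mg/kg), an NMDA receptor antagonist, 7 days before tissue collection. The 4 groups (CTRL saline, CTRL ketamine, CSDS saline and CSDS ketamine) had 10 mice each, but the mPFC of 1 CSDS ketamine mouse was not analysed here, which left 39 mPFC and 40 vHipp libraries. None of the labels gives a genetic modification. The tissue was a 1 mm punch of each region, so a library also reflects where the punch fell, and mice of every social rank were kept together in each group.

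Metabotropic glutamate receptors are G protein-coupled receptors through which glutamate adjusts transmitter release and excitability more slowly than through ion channels. Grm5, of group I, couples to Gq and phospholipase C and sits mostly on the postsynaptic side. The group II receptors (Grm2 and Grm3) and the group III receptors (Grm4, Grm7 and Grm8) couple to Gi/o, lower cyclic AMP and largely act as presynaptic brakes on release. In the hippocampus Grm2 is known from dentate granule cells and their mossy fibers, and Grm3 is known from astrocytes as well as neurons.

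All 6 are protein-coding genes, placed here on GRCm38. Grm5 (ENSMUSG00000049583) spans chr7:87584168-88134907 on the plus strand with 10247 exonic bases. The group II gene Grm2 (ENSMUSG00000023192) is compact, at chr9:106643095-106656082 on the minus strand, with 4894 exonic bases. Grm3 (ENSMUSG00000003974) lies at chr5:9485541-9725170 on the minus strand and has 3049 exonic bases in 1 annotated transcript. Of group III, Grm4 (ENSMUSG00000063239) lies at chr17:27422387-27521403 on the minus strand with 5977 exonic bases. Grm7 (ENSMUSG00000056755) covers chr6:110645581-111567230 on the plus strand with 5886 exonic bases, and Grm8 (ENSMUSG00000024211) covers chr6:27275119-28135178 on the minus strand with 9898. Exons of 3 of the genes overlap another annotated gene. Grm2 shares 470 exonic bases with the antisense Gm28111 (4 counts over all libraries), Grm7 shares 130 with the antisense Gm20387 (3402 counts against 98524 for Grm7), and Grm8 contains Mir592 (0 counts). The strand setting of the counting is not given in the sources used here, so reads of such pairs could not be told apart.

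The bases just upstream of the transcription start are shown for the 4 receptors with an entry in the RefSeq promoter table (GRCm38.p6), since these 4 include the receptors with the widest and the narrowest difference between the regions. Each run is the 120 bases before a start, read 5′ to 3′ on the gene's own strand. The table holds 2 starts for Grm7 and 3 for Grm8, of which the first listed is shown. Capitals mark the GC box GGGCGG, searched on both strands along with the CRE core TGACG, the TATA box TATAAA and the E-box CANNTG.
Grm2, chr9:106656110-106656229, minus strand: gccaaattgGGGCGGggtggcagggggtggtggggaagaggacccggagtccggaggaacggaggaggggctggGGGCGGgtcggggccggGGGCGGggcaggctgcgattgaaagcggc
Grm3, chr5:9725353-9725472, minus strand: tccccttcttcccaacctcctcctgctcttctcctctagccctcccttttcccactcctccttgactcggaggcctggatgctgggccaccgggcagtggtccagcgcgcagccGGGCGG
Grm7, chr6:110645392-110645511, plus strand: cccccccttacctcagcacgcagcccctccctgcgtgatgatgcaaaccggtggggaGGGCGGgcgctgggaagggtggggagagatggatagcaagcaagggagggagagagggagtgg
Grm8, chr6:28135147-28135266, minus strand: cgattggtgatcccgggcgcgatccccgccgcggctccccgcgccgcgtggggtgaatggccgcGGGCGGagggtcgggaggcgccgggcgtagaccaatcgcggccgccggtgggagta
The Grm2 window holds 3 GC boxes and the other windows shown hold 1 each, and none of the 4 holds the CRE core, the TATA box or the E-box. Of 32851 such windows of all genes, 26.5% hold a GC box, 11.7% the CRE core, 6.34% the TATA box and 40.2% the E-box. The Grm8 window is the richest in G and C of the 4, at 77.5% with 22 CG dinucleotides, and the Grm2 window holds 10, where the median window has 54.2% and 3. The windows of the other starts differ. The second of Grm7 holds no GC box, and those of Grm8 hold none either, at 52.5% G and C with 1 CRE core (chr6:28134422-28134541) and at 40.0% (chr6:28126427-28126546).

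Total counts per library were 11726129 to 41767119. Values are given as CPM, counts scaled to a common library total after TMM normalization, which corrects for differences in composition between libraries. In the cortical layer and dentate markers, the punches differed by region as labeled. The 5 cortical layer genes of the marker list summed to 551 to 709 CPM in the mPFC and 142.3 to 224 CPM in the vHipp, and the dentate granule cell genes Prox1, Dsp and C1ql2 summed to 18.9 to 46.0 and 98.1 to 489 CPM. The 4 hippocampal pyramidal cell genes did not separate the regions in their sum, at 97.5 to 341 and 70.1 to 471 CPM. Of these, Wfs1 was higher on average in the mPFC (170 against 62.6 CPM), and Spink8, Fibcd1 and Lct were higher in the vHipp. In 4 libraries the markers of another cell type summed to over 1.5 times the next highest library of the region. They were the vHipp of mouse 11 (CSDS ketamine), with 1888 CPM of astrocyte markers against 1011.6 at most elsewhere, the vHipp of CSDS saline mice 9 and 13, with 689 and 88.8 CPM of choroid plexus markers against 30.3 at most, and the mPFC of CTRL ketamine mouse 34, with 31.6 against 19.7 CPM. Results were also computed without these 4.

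All 6 receptors passed the filter on low counts in both regions. To set receptors beside each other, CPM were divided by the length of the union of exons in kb. In the mPFC, 3 receptors stood close together at the top. Grm2 had 24.7 ± 2.58 CPM per kb (SD, n = 39), Grm5 23.0 ± 3.88 and Grm3 22.6 ± 3.38. Their ranges overlapped, and Grm2 exceeded Grm5 in 25 of 39 libraries and Grm5 exceeded Grm3 in 24 of 39, so the order among these 3 does not stand beyond their spread. Below them came Grm7 at 10.3 ± 0.910 CPM per kb, whose range met neither neighbor, then Grm4 at 3.89 ± 0.612 and Grm8 at 2.66 ± 0.567. Grm4 lay above Grm8 in 39 of 39 libraries, although the ranges of both overlapped across libraries.

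The order was different in the vHipp, where Grm5 alone stood at the top with 29.6 ± 5.51 CPM per kb (SD, n = 40), above Grm2 in 40 of 40 libraries, although their ranges across libraries overlapped. It made up 46.2% of the summed level of the 6 receptors there and 26.3% in the mPFC. Grm2 (11.48 ± 3.82 CPM per kb), Grm7 (10.1 ± 1.55) and Grm3 (10.1 ± 3.19) formed a middle tier with overlapping ranges, in which Grm2 exceeded Grm7 in 25 of 40 libraries and Grm7 exceeded Grm3 in 23 of 40. Grm4 followed at 2.04 ± 0.525 and Grm8 at 0.522 ± 0.232, and their ranges did not overlap. Dividing by the longest transcript instead put Grm5 first in the mPFC (29.3 CPM per kb, Grm2 25.7), Grm8 (5.49) above Grm4 (5.05) in the mPFC and Grm7 (14.2) above Grm2 (11.9) in the vHipp, so these neighbors depend on the length used. Grm6, a family member outside the 6 known from retinal ON bipolar cells, had 12 counts over all libraries.

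**Figure D1:**
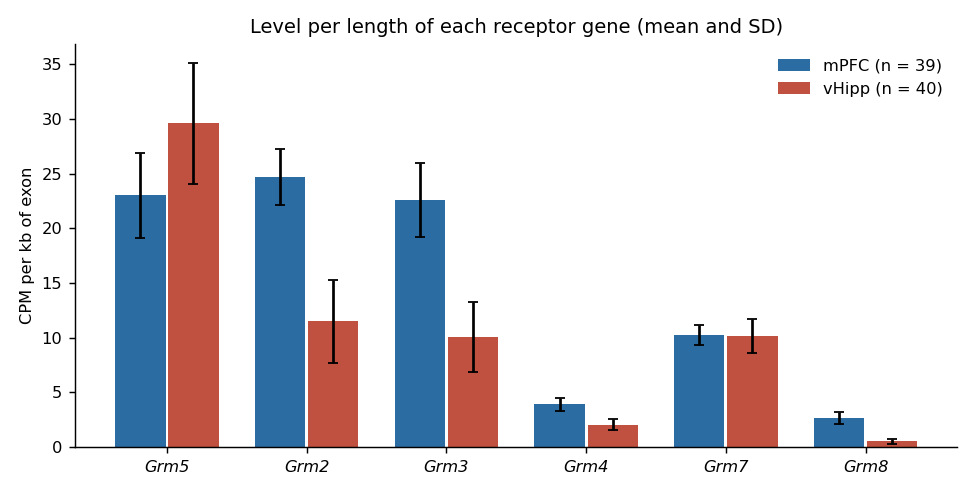
Mean level of each receptor in CPM per kb of exon, with the SD, in the mPFC (39 libraries) and the vHipp (40 libraries). Grm2, Grm5 and Grm3 share the top of the mPFC, between 22.6 and 24.7 on average, whereas Grm5 is alone at the top of the vHipp at 29.6.

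The comparison of the regions, over the mean of the 4 groups and with libraries of both regions in 1 fit, called 5 of the 6 receptors. The receptors higher in the mPFC were 4 (Grm2, Grm3, Grm4 and Grm8) and 1 was higher in the vHipp (Grm5), at an adjusted p under 0.05 in the quasi-likelihood test of edgeR, adjusted after Benjamini and Hochberg. Regions differed widely over all genes as well. Of 31534 genes tested, 48.9% were called, 24.5% as higher in the mPFC and 24.4% as higher in the vHipp. The median log2 fold change (LFC, mPFC minus vHipp) was 1.02 over the 6 receptors and 0.00 over all genes. In bulk tissue, fewer cells of a type and less RNA per cell cannot be told apart.

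Grm5 had 131.99 to 306 CPM in the mPFC (median 241, n = 39) and 160 to 395 in the vHipp (median 307, n = 40). The regions overlapped, but 37 of the 39 mice with both libraries had the higher value in the vHipp. The LFC was -0.37 (SE 0.0579, adjusted p = 5.99e-08 in edgeR's quasi-likelihood test), and the mean in the vHipp was 1.29-fold that of the mPFC.

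For the group II receptors the higher region was the mPFC. Grm2 had 97.5 to 158 CPM in the mPFC (median 122.1) and 16.2 to 95.95 in the vHipp (median 51.0), so that every mPFC library lay above every vHipp library. Its LFC was 1.12 (SE 0.0798, edgeR adjusted p = 8.46e-22). Grm3 had 44.5 to 91.3 CPM in the mPFC (median 67.3) and 16.9 to 69.3 in the vHipp (median 29.4). The vHipp libraries of mice 11, 17 and 13, at 69.3, 48.3 and 47.5 CPM, reached into the mPFC range, yet all 39 mice had the higher value in the mPFC. The LFC of Grm3 was 1.17 (SE 0.0732, edgeR adjusted p = 4.57e-25), and 1.24 without the libraries that stand apart.

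Among the group III receptors, Grm8 showed the widest gap of the 6, with 14.0 to 35.9 CPM in the mPFC (median 26.8) and 0.935 to 10.0 in the vHipp (median 5.63). Its ranges did not overlap, and the mean was 5.10-fold higher in the mPFC, with an LFC of 2.36 (SE 0.117, edgeR adjusted p = 4.34e-31). The lowest vHipp value rests on 17 counts. Grm4 had 16.1 to 31.0 CPM in the mPFC (median 23.1) and 7.22 to 17.8 in the vHipp (median 11.9), higher in the mPFC in 39 of 39 mice although the ranges touched, and its LFC was 0.93 (SE 0.0684, edgeR adjusted p = 3.42e-21). Grm7, the broadly expressed receptor of presynaptic active zones, was the exception. It had 45.6 to 72.7 CPM in the mPFC (median 61.0) and 34.5 to 77.4 in the vHipp (median 60.5), higher in the mPFC in 18 mice and in the vHipp in 21. The LFC of Grm7 was 0.02 (95% interval -0.06 to 0.10, edgeR adjusted p = 0.775).

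Grm2 and Grm8 were thus the 2 receptors whose lowest mPFC library was above their highest vHipp library. Over all 31534 genes tested, 1.74% had this pattern.

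**Figure D2:**
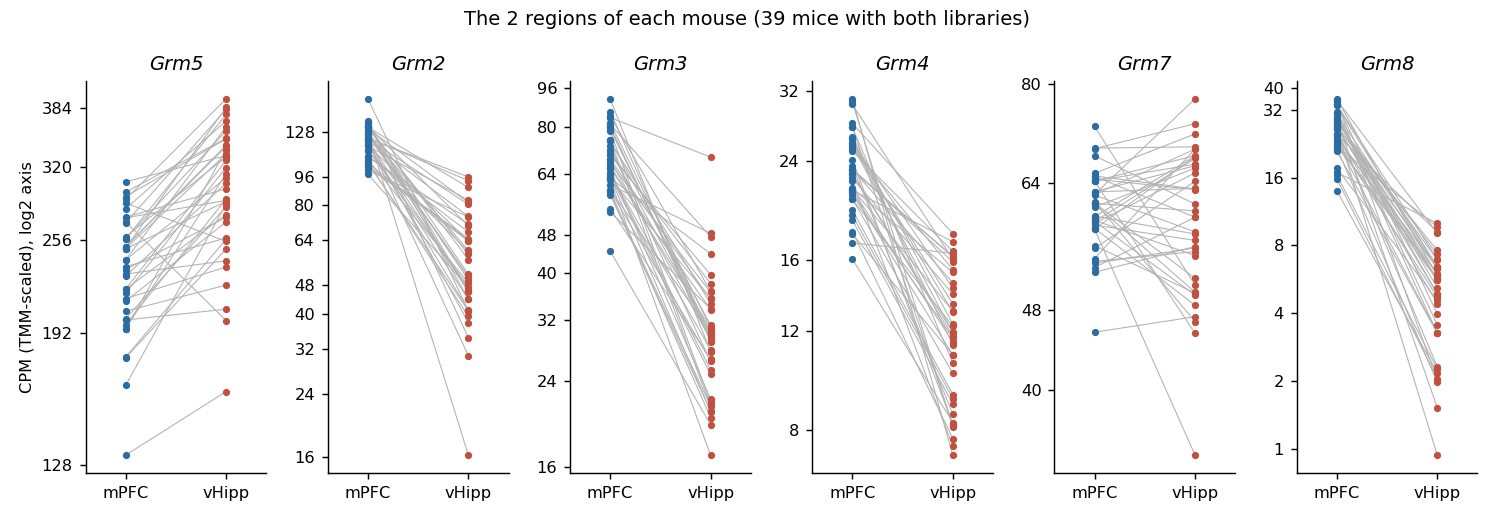
CPM (log2 axis, its range set for each receptor) of the 39 mice with both regions, with a line joining the mPFC and the vHipp library of each mouse. All lines of Grm2, Grm3, Grm4 and Grm8 go down to the vHipp, 37 of 39 lines of Grm5 go up, and those of Grm7 split into 18 and 21.

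Mice also differed from each other, and more so in the vHipp. Within groups, the biological coefficient of variation (the spread left after counting error, from edgeR) was 45.2% for Grm8 in the vHipp, above 98.6% of the 15531 genes of at least 1 CPM on average. It was 31.6% for Grm2, 26.6% for Grm3, 24.4% for Grm4, 18.7% for Grm5 and 15.0% for Grm7, where the median gene had 13.4%. In the mPFC the same quantity ranged from 8.90% for Grm7 to 20.8% for Grm8, with a median of 11.48% over genes. From its lowest to its highest library, Grm2 covered a 1.62-fold range in the mPFC and a 5.93-fold range in the vHipp. Grm8 covered a 2.56-fold range in the mPFC and a 10.7-fold range in the vHipp.

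Whether a mouse with much of a receptor in one region also had much in the other was asked across the 39 mice, with log2 values after subtraction of the group means. Grm5 was correlated between the regions (Pearson's r = 0.551, permutation p = 0.00056, adjusted over the 6 receptors 0.00336). Spearman's rho was 0.516 (permutation p = 0.00122, adjusted 0.00732), r was 0.477 without the 2 mice farthest from the median in the mPFC, and it was 0.721 over the 35 mice left without the libraries that stand apart. The 2 libraries of a mouse also deviated together over 15184 genes of at least 1 CPM on average, with a median r of 0.280. That r runs over genes within a mouse, and the share of genes that reach the r of Grm5 was not computed. The other receptors did not pass the threshold. Grm3 had r = 0.359 (adjusted permutation p = 0.0732), which was 0.229 without the 2 farthest mice and 0.235 without the libraries that stand apart. The others had lower values, Grm7 0.257, Grm8 0.183, Grm4 0.137 and Grm2 -0.109. Grm8 went to -0.0050 without the 2 mice farthest from the median and to 0.266 without the libraries that stand apart.

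Receptors were then compared between the stress and treatment groups, the question of the study's design. In neither region did any of the 6 pass an adjusted p of 0.05 in edgeR's quasi-likelihood test, in CSDS against CTRL mice under saline, under ketamine or over both, in ketamine against saline in CTRL, in CSDS or over both, or in the interaction. Nor did any pass when the mean stress effect or the mean ketamine effect was compared between the regions. No gene of the whole table passed either in these 16 comparisons (0% of 28993 genes in the mPFC, of 28991 in the vHipp and of 31534 across both). DESeq2 called 1 gene, not a receptor of these 6, in the vHipp of CSDS against CTRL mice over both treatments and none in the other comparisons. Of the 96 LFCs of the receptors, 4 had an unadjusted p under 0.05, and the largest in size was 0.39. Over all genes the share under 0.05 ran from 2.84% to 9.71% in these comparisons, so the count of the receptors lay within the background. Mice of a housing group stayed together and shared their stress condition. The p-values of the stress comparisons treat mice as independent, and the housing group was not used here. By mouse number the mice fall into 5 sets of 4 CTRL and 4 CSDS mice, and results were also computed without each set.

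**Figure D3:**
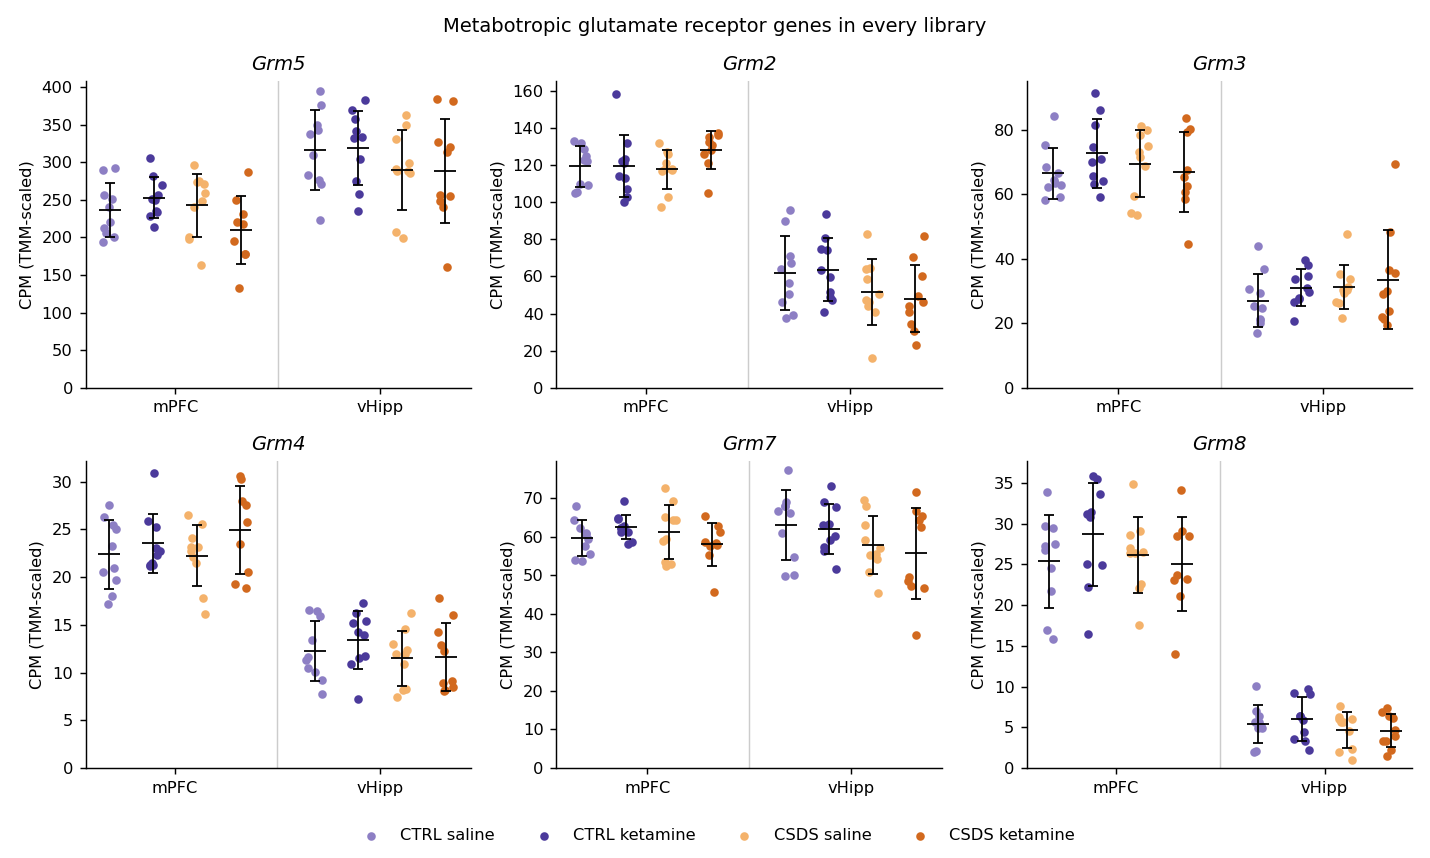
CPM of the 6 receptors in each library by stress group and treatment, for the mPFC (9 or 10 libraries a group) and the vHipp (10 a group), with the mean and SD. The 4 groups overlap for every receptor in both regions, and from the lowest to the highest library Grm2 covers a 5.93-fold and Grm8 a 10.7-fold range in the vHipp.

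Grm5 had 194 to 292 CPM in the mPFC of CTRL saline mice (median 230), 214 to 306 in CTRL ketamine mice (median 250), 164 to 296 in CSDS saline mice (median 254) and 131.99 to 287 in CSDS ketamine mice (median 217). The CSDS ketamine group held the lowest library and had the lowest mean, 210 ± 45.2 CPM (SD, n = 9), against 253 ± 27.4 in CTRL ketamine mice (n = 10), and the groups overlapped. Under ketamine, the LFC of CSDS against CTRL mice was -0.26 (95% interval -0.47 to -0.05, unadjusted p = 0.0152, adjusted p = 0.830, edgeR), where 5.80% of all genes had an unadjusted p under 0.05. Under saline it was 0.03 (95% interval -0.17 to 0.24), and no receptor had an unadjusted p under 0.05, against 2.94% of all genes. For Grm5 the difference between these 2 stress effects, the interaction, was -0.29 (SE 0.144, unadjusted p = 0.0469, adjusted p = 0.898, edgeR), where 5.31% of genes had an unadjusted p under 0.05. Without the libraries that stand apart, the stress effect under ketamine was -0.23 (unadjusted p = 0.0312) and the interaction -0.27 (unadjusted p = 0.0656). Without each set in turn they ranged from -0.37 to -0.21 and from -0.40 to -0.22. In CSDS mice, Grm5 was at an LFC of -0.20 for ketamine against saline (95% interval -0.41 to 0.01, unadjusted p = 0.0586, edgeR), below 0 within all 5 sets (-0.49 to -0.02), and 4.32% of genes had an unadjusted p under 0.05 in this comparison. Without the libraries that stand apart the value of Grm5 was -0.21 (unadjusted p = 0.0477), and over the other alternatives it ranged from -0.28 to -0.14, with unadjusted p from 0.0101 to 0.181. In the same comparison Grm2 was at 0.13 (unadjusted p = 0.0543) and Grm4 at 0.17 (unadjusted p = 0.0906). Without each set in turn, Grm2 ranged from 0.09 (without set 1) to 0.20 (without set 3), and Grm4 from 0.05 (without set 2) to 0.25 (without set 1). Within set 2 the difference of Grm4 was 0.83 on the log2 scale, and in the other sets it ran from -0.15 to 0.31. The summed oligodendrocyte markers of the mPFC were at 1708 ± 908 CPM in CTRL ketamine mice (SD, n = 10) and at 2315 ± 1634 CPM in CSDS ketamine mice (n = 9), within 494 to 5815 CPM over all groups, and 0 of the 5 had an unadjusted p under 0.05 in edgeR for stress under ketamine. Across the 39 mPFC libraries Grm5 had r = 0.163 with them, and 0.342 without the 2 farthest libraries. Grm2 went against them, with r = -0.509 and rho = -0.485 (adjusted permutation p = 0.00625 and 0.0110 over all pairs of the 6 receptors with 11 marker lists in both regions), and r was -0.508 without the 2 farthest libraries. Their part in the values of Grm5 and Grm2 was not tested.

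In the vHipp, Grm5 was at 316 ± 53.3 CPM in CTRL saline, 319 ± 49.2 in CTRL ketamine, 290 ± 53.3 in CSDS saline and 289 ± 69.4 in CSDS ketamine mice (SD, n = 10 each). CSDS mice lay lower on average in both regions, with LFCs over both treatments of -0.11 (95% interval -0.26 to 0.03) in the mPFC and -0.12 (95% interval -0.29 to 0.05) in the vHipp, and both intervals held 0. The difference between these effects was 0.02 (95% interval -0.21 to 0.25).

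Grm2 had 37.8 to 95.95 CPM in the vHipp of CTRL saline mice (median 60.3), 40.8 to 93.7 in CTRL ketamine mice (median 61.6), 16.2 to 82.7 in CSDS saline mice (median 48.9) and 23.1 to 81.5 in CSDS ketamine mice (median 45.0). Both CSDS groups reached lower than the CTRL groups, but all 4 overlapped. Over both treatments, CTRL mice had 62.6 ± 18.0 CPM and CSDS mice 49.7 ± 17.5 (SD, n = 20 each), with an LFC of -0.32 (95% interval -0.61 to -0.03, unadjusted p = 0.0332, adjusted p = 0.460, edgeR). In this comparison 9.71% of all genes had an unadjusted p under 0.05, the highest such share among these 16 comparisons and the background for the 1 receptor of 6. Without the libraries that stand apart the LFC was -0.29 (unadjusted p = 0.0701), and over the other alternatives it ranged from -0.38 to -0.28, with unadjusted p from 0.0130 to 0.107. The difference was below 0 within all 5 sets, from -0.54 to -0.13 on the log2 scale. The other receptors had LFCs from -0.28 (Grm8) to 0.17 (Grm3), and the interval of each held 0.

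In the mPFC, Grm2 had 104.7 to 132.8 CPM in CTRL saline mice (median 122.5), 100.1 to 158 in CTRL ketamine mice (median 117.6), 97.5 to 131.9 in CSDS saline mice (median 117.9) and 104.8 to 137.5 in CSDS ketamine mice (median 130.8). The stress effect over both treatments was 0.04 (95% interval -0.05 to 0.14), and 3.52% of genes had an unadjusted p under 0.05. For Grm2, the mPFC stress effect less the vHipp one was 0.37 (SE 0.158, unadjusted p = 0.0216, adjusted p = 0.688, edgeR), and 0.33 (unadjusted p = 0.0512) without the libraries that stand apart. Over all genes, 6.86% had an unadjusted p under 0.05 for this difference and 3.46% for that of the ketamine effect, where no receptor did.

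Grm2 also differed by the dentate granule cell markers of a library. In the vHipp, Prox1, Dsp and C1ql2 summed to 341 ± 108.5 CPM in CTRL saline, 336 ± 80.4 in CTRL ketamine, 271 ± 100.5 in CSDS saline and 241 ± 82.5 in CSDS ketamine mice (SD, n = 10 each). Prox1, the transcription factor of granule cell identity, had an LFC of -0.43 for CSDS against CTRL mice over both treatments (unadjusted p = 0.00748), the secreted C1q-like protein C1ql2 had -0.48 (unadjusted p = 0.00168) and the desmosomal protein Dsp had -0.24 (unadjusted p = 0.159), all in edgeR. None of the 3 passed the adjustment. Across the 40 vHipp libraries, after subtraction of group means, Grm2 and the summed markers had a Pearson's r of 0.905 and a Spearman's rho of 0.900, each with a permutation p of 2e-05, the smallest that the resamples can give, and adjusted p of 0.00022 and 0.00033 over all pairs of the 6 receptors with 11 marker lists in both regions. Without the 2 libraries farthest from the median r was 0.858, and without the libraries that stand apart it was 0.911. Both values of a pair come from the same library. The CSDS mice 4 and 5 were lowest in both, at 16.2 CPM of Grm2 beside 98.1 CPM of the markers and at 23.1 beside 99.4. The part of the markers in the stress values of Grm2 was not tested.

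**Figure D4:**
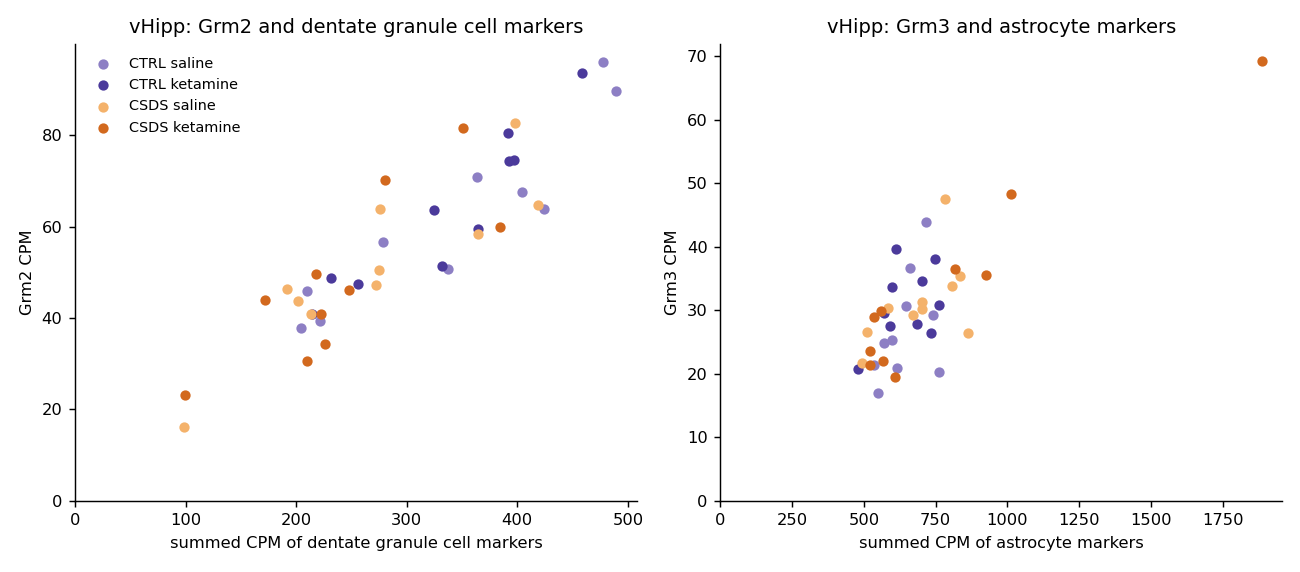
CPM in the 40 vHipp libraries, colored by group, with Grm2 against the summed CPM of Prox1, Dsp and C1ql2 on the left and Grm3 against the summed CPM of 5 astrocyte markers on the right. Grm2 goes up with the dentate markers, from 16.2 to 95.95 CPM, and the library of mouse 11 stands far to the right in the Grm3 panel at 1888 CPM.

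Grm3 had 16.9 to 43.9 CPM in the vHipp of CTRL saline mice (median 25.1), 20.8 to 39.7 in CTRL ketamine mice (median 30.2), 21.7 to 47.5 in CSDS saline mice (median 30.2) and 19.5 to 69.3 in CSDS ketamine mice (median 29.4). The groups overlapped, and the highest values were those of the CSDS ketamine mice 11 and 17, at 69.3 and 48.3 CPM. The stress effect over both treatments was 0.17 (95% interval -0.08 to 0.42, unadjusted p = 0.169, edgeR), and 0.05 (unadjusted p = 0.644) without the libraries that stand apart. In the same region, markers of microglia (5 of 5), astrocytes (3 of 5) and endothelium (3 of 4) were higher in CSDS mice at an unadjusted p under 0.05, none of them after adjustment, where 9.71% of all genes were under 0.05. These marker counts include the library of mouse 11 and were not computed without it. Median summed astrocyte markers were 631 CPM in CTRL saline, 649 in CTRL ketamine, 703 in CSDS saline and 587 in CSDS ketamine mice. Grm3 went with the microglia, astrocyte and endothelial lists across the vHipp libraries. With the summed astrocyte markers r was 0.735 and rho 0.640, with permutation p of 2e-05 and 4e-05 and adjusted p of 0.00022 and 0.00048 over the same pairs. The r was 0.597 without the 2 farthest libraries and 0.670 without the libraries that stand apart. With the microglia markers r was 0.765 (rho 0.725) and with the endothelial markers 0.769 (rho 0.696), each with a permutation p of 2e-05 and an adjusted p of 0.00022. They were 0.661 and 0.653 without the 2 farthest libraries. In the mPFC, where Grm3 had 66.4 ± 7.94, 72.6 ± 10.6, 69.5 ± 10.3 and 66.9 ± 12.5 CPM in CTRL saline, CTRL ketamine, CSDS saline and CSDS ketamine mice (SD, n = 10, 10, 10 and 9), its r with the astrocyte markers was 0.119 (adjusted permutation p = 0.666).

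Grm7 moved the other way in the vHipp. It had r = -0.768 and rho = -0.684 with the microglia markers (permutation p = 2e-05 for each, adjusted 0.00022 and 0.00033), -0.649 without the 2 farthest libraries and -0.712 without the libraries that stand apart. With the astrocyte markers r was -0.722 (rho -0.623, adjusted permutation p = 0.00022 and 0.00048), and -0.610 without the 2 farthest libraries. Mouse 11 had both the highest Grm3 and the lowest Grm7 of the region, 34.5 CPM. By group, Grm7 was at 63.1 ± 9.02 CPM in CTRL saline, 62.0 ± 6.55 in CTRL ketamine, 57.8 ± 7.43 in CSDS saline and 55.7 ± 11.9 in CSDS ketamine mice (SD, n = 10 each), with overlapping ranges. The stress effect over both treatments was -0.13 (95% interval -0.27 to 0.01, unadjusted p = 0.0651, edgeR). In the mPFC the group means of Grm7 lay between 58.1 and 62.5 CPM. The part of the glial and vascular markers in the values of Grm3 and Grm7 was not tested.

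Grm4 had group means of 22.3 to 24.9 CPM in the mPFC and 11.48 to 13.4 CPM in the vHipp. Over both stress groups, ketamine against saline gave an LFC of 0.12 for Grm4 in the mPFC (95% interval -0.02 to 0.26, unadjusted p = 0.0890, edgeR). It rests on the 7 mPFC libraries of set 2, where the difference was 0.67 on the log2 scale, beside -0.09 to 0.12 in the other sets, and without set 2 the LFC was 0.01 (unadjusted p = 0.911). No receptor had an unadjusted p under 0.05 in that comparison, against 3.07% of all genes, and none had one for ketamine against saline in CTRL mice, against 3.64%. Grm4 was correlated with the summed cortical layer markers in the vHipp, with r = 0.594 and rho = 0.619 (permutation p = 4e-05 and 2e-05, adjusted 0.000406 and 0.00033), and r was 0.671 without the 2 farthest libraries.

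Grm8 had 15.8 to 33.9 CPM in the mPFC of CTRL saline mice (median 27.0), 16.5 to 35.9 in CTRL ketamine mice (median 31.0), 17.6 to 34.8 in CSDS saline mice (median 26.5) and 14.0 to 34.1 in CSDS ketamine mice (median 23.7). The groups covered nearly the same range. In the vHipp it was at 5.37 ± 2.32, 6.01 ± 2.65, 4.70 ± 2.19 and 4.57 ± 2.05 CPM in the same order (SD, n = 10 each), and the stress effect over both treatments was -0.28 (95% interval -0.70 to 0.14, unadjusted p = 0.186, edgeR). The value rests on the 8 mice of set 3, where the difference was -1.74 on the log2 scale, while sets 1, 2 and 5 had differences above 0. Set 3 includes mice 9 and 11, whose vHipp libraries stand apart. Without the libraries that stand apart the LFC was -0.18 (unadjusted p = 0.366, edgeR). Without set 3 the LFC turned to 0.04, and without set 5 it was -0.50 (unadjusted p = 0.0434). Like Grm4, Grm8 went with the cortical layer markers in the vHipp (r = 0.579, rho = 0.607, permutation p = 0.00024 and 0.0001, adjusted 0.00226 and 0.00102, and r = 0.518 without the 2 farthest libraries). In the mPFC it went against the microglia markers (r = -0.734, rho = -0.676, permutation p = 2e-05 for each, adjusted 0.00022 and 0.00033, and r = -0.726 without the 2 farthest libraries). It also went against the astrocyte markers there (r = -0.675) and against the excitatory neuron markers in both regions (r = -0.543 in the mPFC and -0.606 in the vHipp), each with an adjusted permutation p under 0.05 for r and rho. The part of these markers in the values of Grm8 was not tested.

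In the vHipp the remaining comparisons held no receptor with an unadjusted p under 0.05. Over all genes the shares were 5.57% for CSDS against CTRL mice under saline, 5.42% under ketamine, 2.88% for ketamine against saline in CTRL mice, 2.90% in CSDS mice, 3.39% over both and 2.84% for the interaction. The lowest and the highest receptor LFC were -0.25 (Grm2) and 0.22 (Grm3) for stress under saline and -0.39 (Grm2) and 0.12 (Grm3) for stress under ketamine. They were -0.03 (Grm7) and 0.19 (Grm3) for ketamine in CTRL mice and -0.10 (Grm2) and 0.09 (Grm3) for ketamine in CSDS mice. Without the libraries that stand apart, Grm3 had -0.06 for stress under ketamine and -0.02 for ketamine in CSDS mice, so that both values changed sign. Over all within-region comparisons the widest 95% interval bounds were -1.02 and 0.74, both of Grm8 in the vHipp, so differences up to that size lie within the intervals of this receptor.

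**Figure D5:**
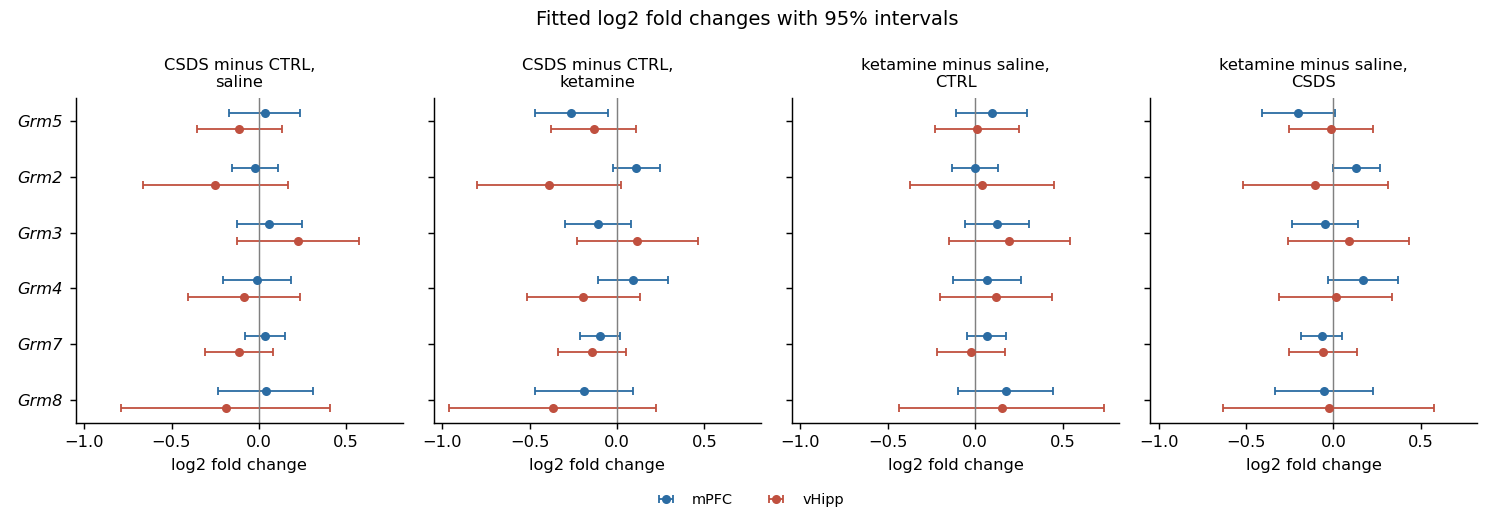
LFC of the 6 receptors with 95% intervals from edgeR's quasi-likelihood fit, in the 4 comparisons of single groups, for the mPFC and the vHipp. Each interval holds 0 except that of Grm5 in the mPFC for stress under ketamine (-0.47 to -0.05), and those of Grm8 in the vHipp are the widest.

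Some receptors went together from mouse to mouse. Of 30 pairs (15 in each region), Grm3 and Grm5 had r = 0.711 and rho = 0.637 in the mPFC (permutation p = 2e-05 and 8e-05, adjusted 0.0002 and 0.0008, and r = 0.646 without the 2 farthest libraries), but r = -0.00433 in the vHipp. The difference between the regions was not tested. Grm5 and Grm7 went together in both, with r = 0.597 in the mPFC (rho 0.568) and 0.635 in the vHipp (rho 0.677), adjusted permutation p of 0.00075 and 0.0002 for r, and r of 0.429 and 0.615 without the 2 farthest libraries of each region. Grm4 and Grm8 had r = 0.687 and rho = 0.712 in the vHipp (permutation p = 2e-05 for each, adjusted 0.0002 and 0.0003, and r = 0.663 without the 2 farthest libraries). In the mPFC this pair had r = 0.436 (adjusted permutation p = 0.0209, and 0.428 without the 2 farthest libraries) and rho = 0.326 (adjusted permutation p = 0.114). Grm3 and Grm7 had r = 0.531 in the mPFC (rho 0.461, adjusted permutation p = 0.00468 and 0.0148) and 0.460 without the 2 farthest libraries. In the vHipp their r was -0.509 (rho -0.425, adjusted permutation p = 0.0047 and 0.0217), and it was -0.289 without the 2 farthest libraries, so it rests in part on those. Of the pairs not named so far, Grm7 and Grm8 (r = 0.474) and Grm2 and Grm4 (r = 0.435) in the mPFC and Grm3 and Grm4 (r = 0.373) and Grm2 and Grm5 (r = -0.367) in the vHipp had an adjusted permutation p under 0.05 for r. For Grm2 and Grm5 the rho of -0.313 did not pass (adjusted permutation p = 0.116), and r was -0.288 without the 2 farthest libraries.

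For each receptor, the genes most like it were taken by the mean of Pearson's r in the 2 regions among 15184 genes of at least 1 CPM, as a description over 39 and 40 libraries. The closest to Grm2 was Slc30a3, a vesicular zinc transporter (r = 0.663 in the mPFC and 0.884 in the vHipp), then Sept5 and Lrtm2. Grm3 was closest to Utrn (0.740 and 0.858), the astrocytic glutamate transporter Slc1a2 (0.728 and 0.843) and Jcad. Grm5 had the closest neighbors of the 6, Ppp1r12a (0.931 and 0.955), Nexmif (0.925 and 0.935) and Dnajb14. Grm4 had the most distant, Pde4a (0.616 and 0.772), Astn2 and Garnl3. Grm7 was closest to Pip4k2b (0.799 and 0.888), Ttc3 and Agtpbp1, and Grm8 to Dclk1 (0.867 and 0.804), the nicotinic receptor subunit Chrna4 (0.813 and 0.852) and Fras1.

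A list of 78 other genes of the receptors' pathway was read beside them, with postsynaptic scaffolds, G proteins and effectors, regulators, presynaptic partners and genes of glutamate supply. Between the regions, edgeR called 30 as higher in the mPFC and 30 as higher in the vHipp (adjusted p under 0.05), where 24.5% and 24.4% of all genes were called in these directions. Of the 9 regulators, 7 were higher in the mPFC and 1 was lower, among them Rgs4, which speeds the turn-off of Gi/o and Gq (LFC 1.76, SE 0.0503), and the receptor kinase Grk5 (LFC 1.49, SE 0.0413). Of the 11 genes of the Gq and phospholipase C branch, 8 were higher in the vHipp and 3 in the mPFC, with Gnaq at -0.35 (SE 0.0383), while Itpr1, the inositol trisphosphate receptor, was at 1.34 (SE 0.0823). Among the scaffolds, 5 of 12 were higher in each region, with Homer1 at 0.34 (SE 0.0562) and Homer3 at -2.98 (SE 0.0895), both binding group I receptors.

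In the stress comparison of the vHipp over both treatments, 13 of the 77 pathway genes tested were higher in CSDS mice at an unadjusted p under 0.05 and 1 was lower, where 9.71% of all genes were under 0.05 in either direction, and no gene of the list passed the adjustment. Those higher included the scaffold Homer2 (LFC 0.41, unadjusted p = 0.00290), the activity-regulated Arc (0.25, unadjusted p = 0.00371) and the astrocytic enzyme glutamine synthetase, Glul (0.27, unadjusted p = 0.00518), all in edgeR. The median LFC of the list was 0.02, where that of all genes was -0.00. The list was tested with all libraries and not without those that stand apart. In the mPFC, 1 of the 77 was higher and none was lower at an unadjusted p under 0.05 for stress over both treatments, beside 3.52% of all genes. For ketamine over both stress groups the count was 0 in the mPFC, beside 3.07% of all genes, and 1 higher in the vHipp, beside 3.39%.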

How the data were processed

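RNA sequencing of the mPFC and vHipp of 40 mice gave 79 libraries. The counts that the authors deposited are raw whole numbers, not normalized, from stranded mRNA libraries and genes of GRCm38. The submitters' processing notes name bcl2fastq 2.20.0.422, and the aligner and counting program are not given in the sources used here. Of 55471 identifiers, 55144 were matched to a symbol. Region, stress group, treatment and mouse number came from the labels.

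Genes with more than 10 counts in total, detected in more than 3 libraries, were tested with edgeR 4.0.16 (R 4.3.3): quasi-likelihood test, TMM scaling, all groups of a region in 1 fit, Benjamini-Hochberg adjustment, two-sided, threshold 0.05. Intervals came from these fits. CPM used TMM factors computed over the libraries of both regions together. Correlations used log2(CPM + 0.5) and 100000 resamples (scipy 1.17.1). The text could name the 6 receptors, the genes of the pathway and marker lists and, for each receptor, the 3 genes with the highest mean r over both regions among genes of at least 1 CPM. The model was tested on simulated data.

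The alternatives were DESeq2 1.42.0, RLE scaling, no filter, filterByExpr, the set of mouse numbers (5 sets of 4 CTRL and 4 CSDS mice) as a covariate, each set left out, only the groups compared, and the mouse as a block. The latter pairs the regions, as a shared number marks 1 animal: the deviations from group means of the 2 libraries had a median correlation of 0.280 over 39 mice (lowest -0.022, highest 0.650). The fit without the libraries that stand apart was chosen after seeing the data. 1 gene of the pathway list is counted but not reported here. The receptors and gene lists were chosen with earlier results of these data known. Depth, 11726129 to 41767119 counts per library, leaves the fewest counts for Grm8 in the vHipp.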

Additional observations from a re-analysis of the deposited data

Results flagged for a closer look

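In 2 of the 48 groups of receptor values, 1 library lay far from the others by the gap to its neighbor relative to the range of the group. Chance gives about 1 in 20, or 2.4 groups here. Grm3 in the vHipp of CSDS saline mouse 13 was at 47.5 CPM, where the next library of the group had 35.4. This is 1 of the libraries with choroid plexus markers above the rest of the region. Grm4 in the mPFC of CTRL ketamine mouse 26 was at 31.0 CPM, where the next library had 25.8.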

How the results depend on the processing

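The number of receptors called at an adjusted p under 0.05 was the same as reported in every comparison and alternative run, 0 within the regions and in the differences between their effects, and 5 between the regions. With the mouse as a block, which pairs the 2 libraries of a mouse, it was 5 as well, and the block changed no call. Leaving out each of the 5 sets of mice gave 5 to 5. Of the 96 LFCs outside the difference between the regions, 61 kept their sign in every alternative and 35 had another sign in at least 1, the largest of them 0.28 in size, and the lowest adjusted p over all alternatives was 0.312. Grm2 in the vHipp of CSDS against CTRL mice ranged from -0.38 to -0.28. The correlation of Grm8 between the regions went from 0.183 to -0.0050 without the 2 mice farthest from the median and to 0.266 without the libraries that stand apart, and the cause was not tested. With the length of the longest transcript, Grm2 and Grm5 exchanged places in the mPFC, as did Grm4 and Grm8, and Grm2 and Grm7 in the vHipp. The spread between mice limits the stress and treatment comparisons, most for Grm8 in the vHipp, with a biological coefficient of variation of 45.2%, whose lowest library holds 17 counts. Within a region, p-values measure the spread between mice and take no account of their shared housing. Where the punch fell may add to that spread, and its part was not tested. In the main fit over both regions, the 2 libraries of a mouse are treated as independent, and only the block pairs them.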
